A study of Mus musculus with 10 samples.

Results

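The genes of histamine synthesis, breakdown and reception were followed in the hypothalamus of mice bearing C26, a colon adenocarcinoma line that causes wasting (cachexia) when it grows in mice. The members are Hdc, Hnmt, Hrh1, Hrh2 and Hrh3, each read by the probe set that the platform annotation pairs with that gene alone. They are 5 of 18820 genes with such a probe set, and each had 1, so no choice between probe sets arose. The members were chosen by function, not by level or change, though with earlier results of these data known. All 5 passed the filter on dim probe sets, which left 12978 genes for testing.

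Histamine in the brain is made by neurons of the tuberomammillary nucleus, a small cell group in the posterior hypothalamus that sends fibres to much of the brain and supports wakefulness. Histidine decarboxylase (Hdc) makes histamine from histidine, the vesicular monoamine transporter loads it into vesicles, and histamine N-methyltransferase (Hnmt) inactivates it in the tissue. In rodents, histamine acting through H1 receptors in the hypothalamus lowers food intake, and the H3 receptor, a presynaptic autoreceptor, restrains histamine synthesis and release.

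The tumour-bearing group held 5 male CDF1 mice (a BALB/c and DBA/2 cross) that had been inoculated under the skin of the flank with 1000000 C26 cells in Hanks' buffered salt solution, each on an array of its own. The control group held 3 male CDF1 mice given the buffered solution without cells, also on single arrays. A further array held RNA pooled from 5 tumour-bearing mice and another RNA pooled from 4 control mice, and the labels do not say whether those animals also appear on single arrays. All mice were aged 10 to 11 weeks per the labels, were housed singly with free access to a standard diet, and were killed on day 20. The comparison addresses how the hypothalamus, which governs appetite, differs in animals bearing the tumour.

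Values are log2 levels after RMA, a method that sets all arrays to a common distribution and summarises the probes of a probe set. Array medians were 5.27 to 5.32 over the 10 arrays, and correlations between single arrays were 0.980 to 0.989. Precision is limited by how few arrays there are. Of the genes tested by limma, a linear model with a spread estimate shared across genes, 0.0771% were called at an adjusted p of 0.05, all higher in tumour-bearing mice. Lcn2, the secreted acute-phase protein lipocalin 2, was among them, with a log2 difference of 3.05 (limma adjusted p = 0.00855). All 8 listed hypothalamic markers, among them Avp, Oxt, Hcrt and Pomc, lay above the filter level on all 10 arrays.

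None of the 5 histamine genes was called: 0 of 5 passed the adjusted threshold in limma, with adjusted p from 0.434 to 0.938. The differences were 0.17 for Hdc, -0.060 for Hnmt, 0.07 for Hrh1, -0.032 for Hrh2 and 0.20 for Hrh3 on the log2 scale, tumour-bearing minus control. The 3 positive differences of 5 compare with 45.5% positive among all tested genes. The median over the members was 0.07, against -0.010 over all tested genes. Only Hrh3 had an unadjusted p under 0.05, which 10.3% of all tested genes also had (3.78% higher in tumour-bearing mice, as Hrh3 was). The groups overlapped for all 5 members; 8.3% of tested genes had groups that did not overlap.

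**Figure D1:**
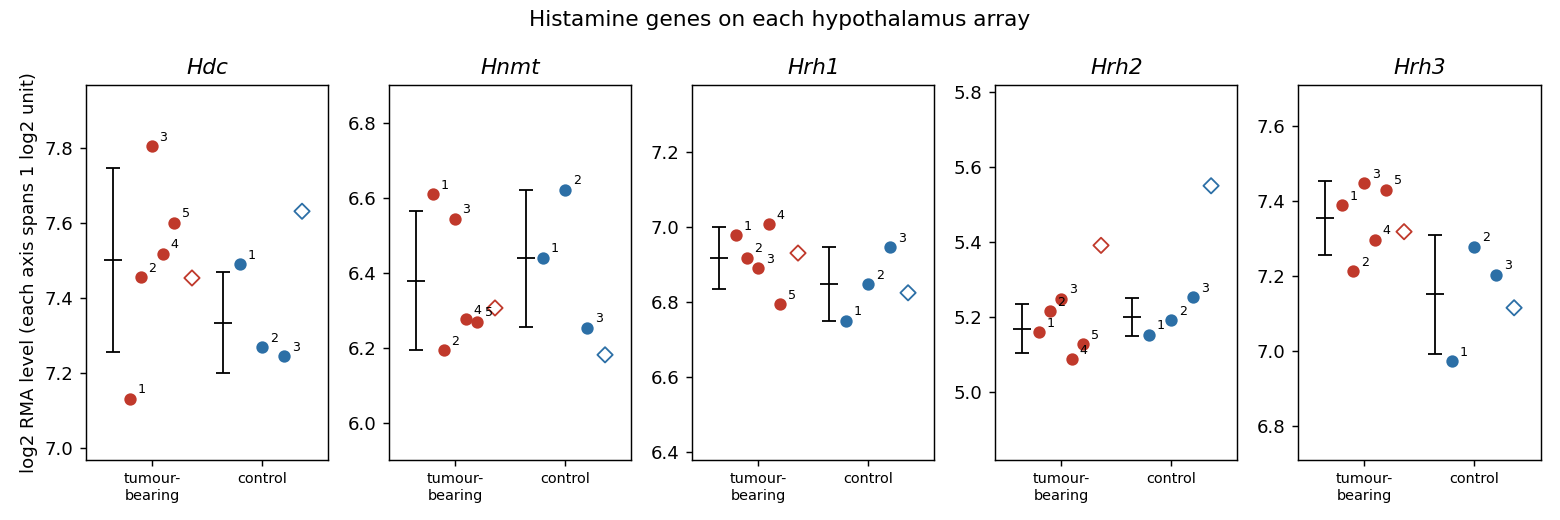
Log2 RMA level (vertical axes, each spanning 1 log2 unit) of the 5 histamine genes in tumour-bearing mice (red) and controls (blue). Filled circles are single mice with their replicate number, bars to their left are the mean ± SD (n = 5 and n = 3), and open diamonds are the pooled arrays. Hdc spread most among tumour-bearing mice, at 7.13 to 7.81, and Hrh3 lay above all controls in 4 of 5 tumour-bearing mice.

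Hdc encodes the enzyme that makes histamine and is the gene that marks the histamine neurons. Its level was 7.13, 7.46, 7.81, 7.52 and 7.60 in tumour-bearing mice 1 to 5, against 7.49, 7.27 and 7.25 in controls 1 to 3. Tumour-bearing mouse 1 lay below every control and mice 3, 4 and 5 above every control, while mouse 2 lay within the control range. The highest tumour-bearing mouse had 1.59 times the level of the lowest, against 1.19 times among controls. The spread of Hdc within groups was 0.22 (pooled SD on the log2 scale), at the 93.2 percentile of all tested genes.

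Hdc averaged 7.50 ± 0.25 (SD, n = 5) in tumour-bearing mice and 7.34 ± 0.14 (SD, n = 3) in controls. The log2 difference was 0.17 ± 0.13 SE (limma adjusted p = 0.704), with a 95% interval from -0.13 to 0.46, that is 0.915-fold to 1.38-fold. Leaving out tumour-bearing mouse 3 gave 0.092, and leaving out tumour-bearing mouse 1 gave 0.26. In RNA of whole tissue, fewer cells of a type and less RNA per cell cannot be told apart. The pooled arrays ran the other way, at 7.45 in the tumour-bearing pool and 7.63 in the control pool, a difference of -0.18 between 1 array each, for which no test exists.

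Markers of tissue that borders the histamine neurons were set beside Hdc. Of 6 listed markers of the mammillary region, which adjoins the tuberomammillary nucleus, 5 had a probe set and 0 were called by limma, nor had any an unadjusted p under 0.05. Their summed linear level was 210 to 251 in tumour-bearing mice and 217 to 243 in controls. These probe sets were dim, with mean levels from 4.38 (Barhl1) to 5.92 (Lhx1) in tumour-bearing mice. Barhl1 lay above the filter level on 6 of the 8 single arrays. The differences were positive for 3, Nkx2-4 (0.14), Foxb1 (0.066) and Lhx1 (0.040), and negative for 2, Barhl1 (-0.18) and Lhx5 (-0.16). Tumour-bearing mice 3 and 5, with the highest Hdc, also had the highest mammillary scores of their group, 0.088 and 0.11 (mean centred log2 level of the list). Mouse 4, next after them for Hdc, had the lowest, -0.13, and the part of this tissue in the Hdc level was not tested.

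Markers of the hypothalamus itself had mostly positive differences, as Hdc and Hrh3 did. Of 8, 7 had a positive difference, against 45.5% of all tested genes, and 0 were called by limma. At an unadjusted p under 0.05, 4 were higher, as were 3.78% of all tested genes. The median difference was 0.25, against -0.010 over all tested genes. The peptide genes Avp (vasopressin, 0.50), Oxt (oxytocin, 0.66) and Trh (thyrotropin-releasing hormone, 0.49) were higher in all 5 tumour-bearing mice than in any control. Of all tested genes, 8.3% had groups that did not overlap, in either direction. Hcrt differed by 0.024, and Pomc, the melanocortin precursor gene, by -0.17. The list's score was 0.10, -0.11, 0.23, 0.15 and 0.15 in tumour-bearing mice 1 to 5, against -0.26, -0.10 and -0.15 in controls 1 to 3, and its summed linear level was 3514 to 4526 in tumour-bearing mice and 3239 to 3609 in controls. Mouse 3 was highest for this score, for Hdc and for Hrh3, and control 1 was lowest for the score and for Hrh3. For Hdc, however, control 1 was the highest control, at 7.49. Tumour-bearing mouse 1, with a score of 0.10, had the lowest Hdc of the single arrays, 7.13. The part of hypothalamic tissue in the Hdc and Hrh3 differences was not tested.

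Midbrain dopamine markers, genes of tissue just behind the hypothalamus, were compared in the same way. Of 11 listed, 10 were tested and all 10 were lower in tumour-bearing mice, with 0 called by limma. At an unadjusted p under 0.05, 8 were lower, as were 6.51% of all tested genes. Their summed linear level was 1398 to 2786 in tumour-bearing mice and 3048 to 3385 in controls. Tumour-bearing mouse 3, highest for Hdc, had the lowest midbrain score, -0.66. Tumour-bearing mouse 1, lowest for Hdc, had a midbrain score of -0.19, also below all controls. With that score as a covariate the Hdc difference was -0.079, in the other direction (limma adjusted p = 0.988). The score separates the groups, so that fit cannot tell tissue and tumour apart. Midbrain markers were not the only ones lower. All 4 tested oligodendrocyte markers were lower at an unadjusted p under 0.05. Their score was -0.65 to 0.23 in tumour-bearing mice and 0.31 to 0.42 in controls. All 5 tested microglia markers had negative differences, with overlapping scores. The part of these cells in the histamine gene differences was not tested.

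Mast cells also make histamine, and their markers were near the floor of the array. Of 8 listed mast cell genes, 7 lay below the filter level of 4.32 on all 8 single arrays, among them the mast cell proteases Cma1, Mcpt4, Tpsb2, Tpsab1 and Cpa3 and the IgE receptor genes Fcer1a and Ms4a2. Kit, which neurons also express, was the exception, at 7.08 to 7.18 in tumour-bearing mice and 7.22 to 7.29 in controls. Kit was lower in every tumour-bearing mouse than in any control. Below the filter level, Cpa3 was 3.66 to 4.12 in tumour-bearing mice and 3.24 to 3.41 in controls. Tpsab1 was 4.11 to 4.30 in tumour-bearing mice and 3.90 to 4.05 in controls, and neither gene overlapped. Between the pools, Cpa3 differed by 0.79 and Tpsab1 by -0.13. The groups overlapped for Cma1, Mcpt4, Tpsb2, Fcer1a and Ms4a2, and the means of Fcer1a and Ms4a2 were lower in tumour-bearing mice. Of all tested genes, 8.3% had groups that did not overlap in either direction, and 5.19% were lower in every tumour-bearing mouse, as Kit was. Cpa3 and Tpsab1 were not tested, so these shares do not cover them. The mean centred score of the 8 genes was -0.014 to 0.085 in tumour-bearing mice and -0.12 to -0.021 in controls, also without overlap. The summed linear level, most of which is Kit, was 216 to 225 in tumour-bearing mice and 217 to 229 in controls. The part of mast cells in the Hdc level was not tested.

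**Figure D2:**
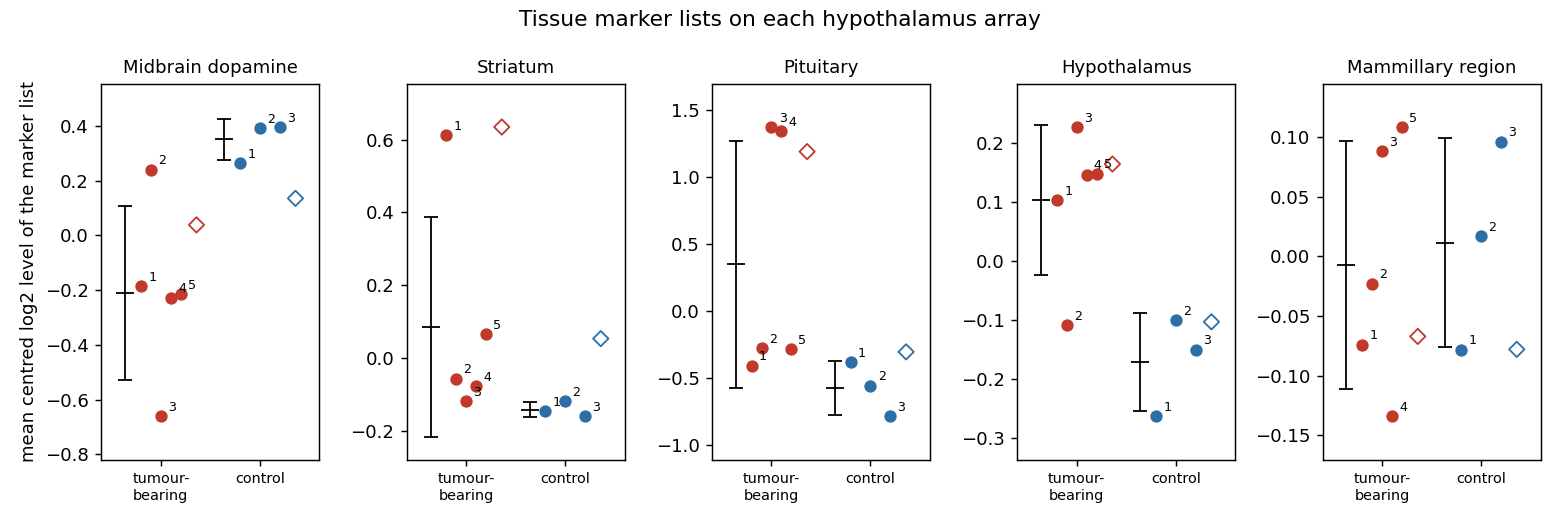
Mean centred log2 level of 5 tissue marker lists (vertical axes, scaled separately) in tumour-bearing mice (red) and controls (blue). Filled circles are single mice with replicate numbers, bars to their left the mean ± SD, and open diamonds the pooled arrays. Midbrain scores lay below all controls in every tumour-bearing mouse, while mammillary scores overlapped.

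Hnmt encodes the methyltransferase that ends histamine action in brain tissue. Its level was 6.61, 6.19, 6.54, 6.28 and 6.27 in tumour-bearing mice 1 to 5, against 6.44, 6.62 and 6.25 in controls 1 to 3. Tumour-bearing mice 1 and 3 lay near the highest control, mice 4 and 5 near the lowest, and mouse 2 below all controls. The means were 6.38 ± 0.19 (SD, n = 5) in tumour-bearing mice and 6.44 ± 0.18 (SD, n = 3) in controls.

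The log2 difference of Hnmt was -0.060 ± 0.12 SE (limma adjusted p = 0.906, 95% interval -0.33 to 0.21). The spread within groups, 0.18, was at the 88.3 percentile of tested genes and larger than the difference. The difference turned to 0.032 without control 2 and widened to -0.15 without control 3. The pools were at 6.31 in the tumour-bearing pool and 6.18 in the control pool, a difference of 0.12 in the other direction.

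Hrh1 encodes the H1 receptor, which couples to Gq proteins and excites neurons. Its level was 6.98, 6.92, 6.89, 7.01 and 6.79 in tumour-bearing mice 1 to 5, against 6.75, 6.85 and 6.95 in controls 1 to 3. Mice 1 and 4 lay above all controls and the other three within the control range. The means were 6.92 ± 0.083 (SD, n = 5) in tumour-bearing mice and 6.85 ± 0.098 (SD, n = 3) in controls, a log2 difference of 0.07 ± 0.07 SE (limma adjusted p = 0.786, 95% interval -0.088 to 0.23).

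The Hrh1 interval reaches 1.17-fold at its upper end and 0.941-fold at its lower end. The difference was 0.021 without control 1 and 0.12 without control 3. The pools were at 6.93 in the tumour-bearing pool and 6.82 in the control pool, a difference of 0.11.

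Hrh2 encodes the H2 receptor, which couples to Gs proteins and raises cyclic AMP. Its probe set was dim, with a mean level at the 13.1 percentile of tested genes. The level was 5.16, 5.22, 5.25, 5.09 and 5.13 in tumour-bearing mice 1 to 5, against 5.15, 5.19 and 5.25 in controls 1 to 3. Mice 4 and 5 lay below all controls and the other three within the control range.

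Hrh2 averaged 5.17 ± 0.065 (SD, n = 5) in tumour-bearing mice and 5.20 ± 0.050 (SD, n = 3) in controls. The log2 difference was -0.032 ± 0.089 SE (limma adjusted p = 0.938, 95% interval -0.23 to 0.17), and -0.0049 without control 3. The pools were at 5.39 in the tumour-bearing pool and 5.55 in the control pool, both above every single array, with a difference of -0.16.

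Hrh3 encodes the H3 receptor, the Gi-coupled receptor on histamine neurons and on the endings of other neurons. Its level was 7.39, 7.21, 7.45, 7.30 and 7.43 in tumour-bearing mice 1 to 5, against 6.97, 7.28 and 7.20 in controls 1 to 3. Mice 1, 3, 4 and 5 lay above all controls and mouse 2 between controls 3 and 2, so the groups overlapped by 1 mouse. Control 1 was the lowest of the 8 arrays.

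Hrh3 averaged 7.36 ± 0.099 (SD, n = 5) in tumour-bearing mice and 7.15 ± 0.16 (SD, n = 3) in controls, which is 1.15-fold. The log2 difference was 0.20 ± 0.083 SE, with a 95% interval from 0.017 to 0.39 that does not allow for the number of genes tested. The unadjusted p was 0.0353 and the limma adjusted p was 0.434, with 1036 of 12978 genes at that unadjusted p or lower, so the difference failed the correction. It was 0.11 without control 1 and 0.27 without control 2. The pools were at 7.32 in the tumour-bearing pool and 7.12 in the control pool, a difference of 0.20 in the same direction.

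The H3 receptor is also abundant in the striatum, so striatal markers were set beside it. Of 8 listed, 6 were tested and 0 were called by limma. Of the 6, 5 had a positive difference, against 45.5% of all tested genes. At an unadjusted p under 0.05, 2 were higher and 1 lower, against 3.78% and 6.51% of all tested genes. The summed linear level of the list was 871 to 1325 in tumour-bearing mice and 815 to 822 in controls. Tumour-bearing mouse 1 had the highest striatal score, 0.61, and mouse 3 the lowest of its group, -0.12, while their Hrh3 levels were 7.39 and 7.45. The part of striatal tissue in the group difference was not tested. With the midbrain score as a covariate the Hrh3 difference was 0.097 (limma adjusted p = 0.987). The midbrain score separates the groups, so that fit cannot tell tissue and tumour apart.

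**Figure D3:**
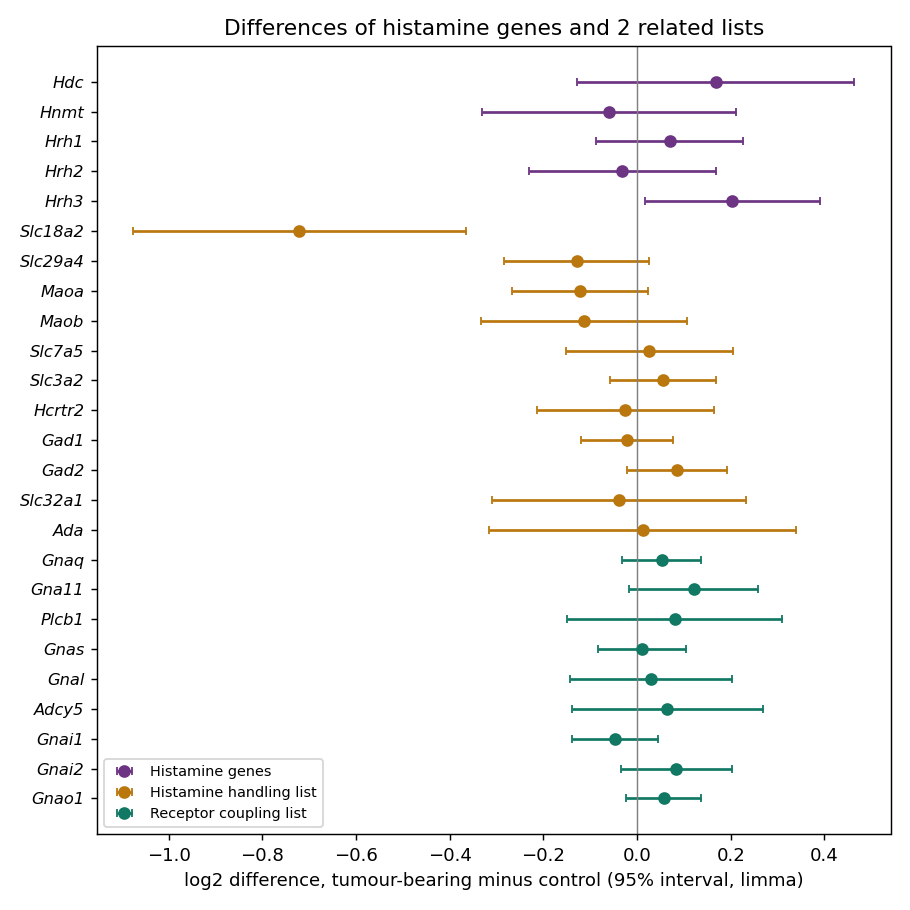
Log2 difference, tumour-bearing minus control (horizontal axis), with its 95% interval from limma, for the 5 histamine genes (purple), 11 tested genes of histamine handling (orange) and 9 tested genes of receptor coupling (green). The intervals of Slc18a2 and Hrh3 lie on 1 side of 0 before adjustment, and no gene shown passed the adjusted threshold.

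Genes that load, carry or break down histamine, carry or break down histidine, or are expressed in histamine neurons formed a second list of 14. A probe set of their own was found for 13, and 11 passed the filter; the diamine oxidase gene Aoc1 and the histidine ammonia-lyase gene Hal lay below it on all 8 single arrays. Of the 11, 4 had a positive and 7 a negative difference, against 45.5% positive among all tested genes. The median was -0.025 against -0.010 over all tested genes. None was called by limma (0 of 11), and 1, Slc18a2, was lower at an unadjusted p under 0.05, as were 6.51% of all tested genes. The count called was 1 without tumour-bearing mouse 2.

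Slc18a2 encodes the vesicular monoamine transporter, which histamine neurons share with dopamine, noradrenaline and serotonin neurons. It was 7.75 to 8.51 in tumour-bearing mice and 8.53 to 8.80 in controls, so all 5 tumour-bearing mice lay below all 3 controls, as they did for 5.19% of tested genes. The log2 difference was -0.72 ± 0.16 SE (limma adjusted p = 0.214), and -0.86 without tumour-bearing mouse 2, when it passed (limma adjusted p = 0.0075). With the midbrain score as a covariate the Slc18a2 difference was -0.23 (limma adjusted p = 0.971). That score is built from dopamine neuron genes and separates the groups, so the fit cannot tell tissue and tumour apart. The part of midbrain tissue in the Slc18a2 difference was not tested. Of 3 listed markers of serotonin neurons (raphe), 2 had a probe set and 1, Slc6a4, was tested, with a log2 difference of -1.31 (limma adjusted p = 0.4135). Slc6a4 lay above the filter level on 4 of the 8 single arrays. The list's score was -0.75 to -0.22 in tumour-bearing mice, against -0.74, 1.99 and 1.30 in controls 1 to 3. The part of serotonin neurons in the Slc18a2 difference was not tested. The Hdc difference had the other sign, at 0.17, and was not called either.

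The monoamine oxidases, which finish histamine breakdown in the brain, differed by -0.12 ± 0.065 SE (Maoa) and -0.11 ± 0.098 SE (Maob). Slc29a4, the plasma membrane monoamine transporter that can take up histamine, differed by -0.13 ± 0.069 SE. Slc7a5 and Slc3a2, the paired chains of the transporter that brings histidine and other large amino acids into the brain, differed by 0.026 and 0.055. These 5 genes had limma adjusted p from 0.555 to 0.943.

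Histamine neurons also make GABA and carry the orexin receptor 2. The GABA enzymes Gad1 and Gad2 differed by -0.022 and 0.085, and the vesicular GABA transporter Slc32a1 by -0.038. Hcrtr2, the orexin receptor 2 gene, was 6.07 to 6.37 in tumour-bearing mice and 6.21 to 6.36 in controls, a log2 difference of -0.025 ± 0.084 SE (limma adjusted p = 0.952). Ada, adenosine deaminase, which in rats is enriched in tuberomammillary neurons, differed by 0.012 ± 0.15 SE. Its interval, -0.32 to 0.34, was the widest of the list apart from that of Slc18a2.

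The third list held 9 genes through which the receptors act, and all 9 were tested. Of these, 8 had a positive and 1 a negative difference, against 45.5% positive among all tested genes. The median was 0.057 against -0.010 over all tested genes, and 0.017 without tumour-bearing mouse 1. None was called by limma (0 of 9), and 0 of 9 had an unadjusted p under 0.05. For the Gq pathway of the H1 receptor, Gnaq differed by 0.053, Gna11 by 0.12 and the phospholipase gene Plcb1 by 0.081. For the Gs pathway of the H2 receptor, Gnas differed by 0.010, Gnal by 0.030 and the adenylyl cyclase gene Adcy5 by 0.065. For the inhibitory G proteins of the H3 receptor, Gnai1 differed by -0.047, Gnai2 by 0.084 and Gnao1 by 0.057.

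**Figure D4:**
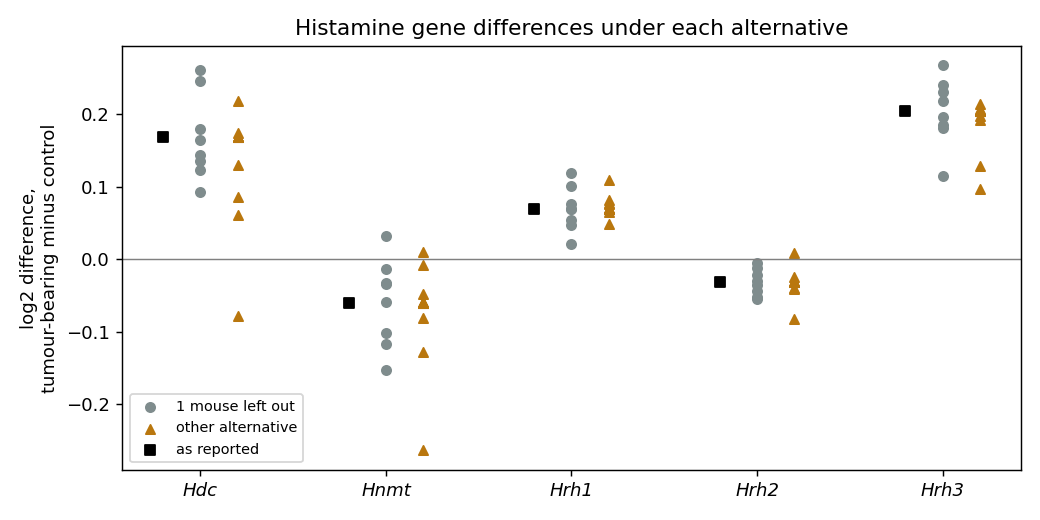
Log2 difference, tumour-bearing minus control (vertical axis), of the 5 histamine genes as reported (square), with 1 mouse left out (circles) and under the other alternatives (triangles). Hrh1 and Hrh3 stayed above 0 in all 20 alternatives, while Hdc, Hnmt and Hrh2 crossed 0 in at least 1. Changing only the filter, the variance model or the probe set averaging cannot move these differences, since each gene has 1 probe set.

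For each member the 3 genes with the most similar pattern over the 8 single arrays were taken from 12977 named genes by Pearson's r. This is a description only, since the genes share the same arrays and pieces of tissue. Each r was also picked as one of the highest of 12977 over only 8 arrays. How high r would reach among unrelated genes was not tested. Hdc ran closest to Scg3, which encodes the secretory granule protein secretogranin 3 (r = 0.982, rho = 0.976), then to Tmem176b and Tmem255a (r = 0.969 and 0.962). Hnmt ran closest to Mnat1, an assembly factor of the kinase that activates cyclin-dependent kinases (r = 0.996, rho = 0.952), then to Uqcr11 and Elovl4 (r = 0.953 and 0.935). Hrh1 ran closest to the 28S ribosomal RNA gene Rn28s1 (r = 0.957, rho = 0.929), then to Ube2h and Rin3 (r = 0.955 and 0.935).

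Hrh2 ran closest to Smtn, which encodes the smooth muscle protein smoothelin (r = 0.956, rho = 0.905), then to Capn1 and Tirap (r = 0.937 and 0.922). Hrh3 ran closest to Trrap, a subunit of histone acetyltransferase complexes (r = 0.969, rho = 0.905), then to Slit1 and Ptpn11 (r = 0.966 and 0.960). No member was among the 3 genes closest to another member. Over the 10 pairs of members, r ran from -0.32 (Hdc and Hrh1) to 0.351 (Hrh1 and Hrh3).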

How the data were processed

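Hypothalamus RNA was hybridised to whole-transcript arrays, 1 array per sample. The authors deposited log2 values from RMA, which the submitters' processing notes name; the log2 scale is read from RMA and from the span of the numbers, and the version, the probe set definition and the build are not given in the sources used here. Of 35556 probe sets, 21218 were paired with 1 gene by the platform annotation, 1881 with several and 12457 are unnamed here. Updating symbols through RefSeq (GRCm38.p6) changed 0.

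Probe sets above 20 on the linear scale (4.32 in log2) on at least 3 of the 8 single arrays were tested, 22837 in all. The difference between tumour-bearing mice and controls was tested with limma 3.58.1 (R 4.3.3; functions lmFit and eBayes, with a trend of spread on level), and p-values were adjusted by Benjamini-Hochberg over every probe set tested, with 0.05 as threshold. The pools entered no main test. On data simulated for the 22837 probe sets, the test recovered 49.5% of 200 probe sets changed by 0.5 in log2 and 85.5% of those changed by 1.

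The text names all members, each tested gene of the handling and coupling lists, the 3 genes most like each member, and Lcn2; single marker genes were picked with their values in view. The members and lists were chosen with earlier results of these data known. Alternatives varied the filter, variance model, weights, normalization, replicate block, pools, probe set averaging, a midbrain covariate and the mice included. Python 3.11.15 with matplotlib 3.10.9 drew the figures.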

Additional observations from a re-analysis of the deposited data

Results flagged for a closer look

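Among the 25 histamine, handling and coupling genes, 3 had a tumour-bearing mouse that stood apart from the other four, judged by its gap to the nearest mouse as a share of the group's range. For normally distributed values, chance alone marks about 1 in 20 genes in this way. The share of all tested genes so marked was not computed. Slc18a2 was 8.51 in tumour-bearing mouse 2 and 7.91 in the next mouse, a gap of 0.792 of the range. Gnai1 was 9.52 in the same mouse and 9.42 in the next, a gap of 0.727. Adcy5 was 8.86 in tumour-bearing mouse 1 and 8.50 in the next, a gap of 0.905. Mouse 2 had the highest midbrain score of its group, 0.24, and mouse 1 the highest striatal score, 0.61; the part of either tissue in these values was not tested. None of the 5 histamine genes had such a mouse.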

How the results depend on the processing

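Over 20 alternatives, 0 of 100 values of the 5 histamine genes passed the threshold, with limma adjusted p from 0.306 to 0.996. The direction turned in 4: Hnmt to 0.011 and Hrh2 to 0.0086 with the replicate block, Hdc to -0.079 with the midbrain covariate, and Hnmt without control 2. Alternatives that changed only the filter, the variance model or the probe set averaging could not turn a direction, since each member has 1 probe set. With 1 mouse left out, Hnmt ranged from -0.15 to 0.032. Samples with the same replicate number did not deviate together (correlations -0.0020, 0.0084 and 0.0089), so the numbers are not taken as pairs.

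The count of called probe sets, 13 as reported, was 5 with no filter, 4 with no intensity trend, 24 with array weights, 76 with a gene's probe sets averaged, and 0 with the replicate block, the midbrain covariate or without tumour-bearing mice 3 and 4. It ranged from 0 (without control 3) to 66 (without tumour-bearing mouse 2) with 1 mouse left out. Of the handling list, 0 to 1 were called with 1 mouse left out, and 1, Slc18a2, with a gene's probe sets averaged, which tests fewer features (-0.72, limma adjusted p = 0.0429). The list's median, -0.025, was -0.043 with array weights, 0.00036 with the replicate block, -0.044 with the pools added, -0.0074 with the midbrain covariate, 0.0065 without mice 3 and 4, and -0.072 to 0.0070 with 1 mouse left out. None of the coupling list was called in any of the 20. Its median, 0.057, ran from 0.017 without tumour-bearing mouse 1 to 0.083 with the replicate block.

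Of 400 values of the 20 list genes, 29 turned direction. Here too, changing only the filter or the variance model could not move a gene's difference. With array weights these were Slc7a5 (-0.042), Ada (-0.017) and Gnas (-0.013). With the replicate block they were Hcrtr2 (0.016), Gad1 (0.00036) and Gnas (-0.011), and with the pools added Gnas (-0.0079). With the midbrain covariate they were Gad1 (0.078), Slc32a1 (0.21), Ada (-0.0074), Plcb1 (-0.040), Gnas (-0.027) and Gnai1 (0.021), and without mice 3 and 4 Gad1 (0.0096) and Slc32a1 (0.056). With 1 mouse left out the ranges that crossed 0 were -0.090 to 0.086 (Slc7a5), -0.0014 to 0.097 (Slc3a2), -0.055 to 0.020 (Hcrtr2), -0.048 to 0.0070 (Gad1), -0.19 to 0.058 (Slc32a1), -0.078 to 0.090 (Ada), -0.029 to 0.037 (Gnas), -0.030 to 0.059 (Gnal) and -0.0099 to 0.096 (Adcy5). The cause of these changes was not tested.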

Other observations

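The pooled arrays agreed in direction with the single arrays for Hrh1, Hrh2 and Hrh3 and differed for Hdc and Hnmt. The tumour-bearing pool had a pituitary marker score of 1.19 and a striatal score of 0.63, against -0.31 and 0.053 in the control pool. Among single tumour-bearing mice, pituitary scores of 1.37 and 1.34 were found in mice 3 and 4, and the other three lay at -0.41 to -0.28, against -0.79 to -0.39 in controls. Without mice 3 and 4 the Hdc difference was 0.061 and the Hrh3 difference 0.19. Leaving out mouse 3 alone, the highest for Hdc, gave 0.092 for Hdc and 0.18 for Hrh3. The part of pituitary tissue in these differences was not tested.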
